A study of Mus musculus with 18 samples.

Results

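The mTOR complexes and the regulators that act directly on them were examined in livers of wild-type and *Gpr180*KO mice fed a high-fat diet (HFD). The 10 genes were chosen by name, with earlier results of these data known, and fall into 5 activators and 5 inhibitors. The activators are *Mtor*, *Rptor*, *Rictor*, *Mlst8* and *Rheb*, and the inhibitors are *Akt1s1*, *Deptor*, *Tsc1*, *Tsc2* and *Ddit4*. All 10 were found among the 23352 gene symbols of the deposited tables, each with an estimate that passed in every library, and all 10 were among the 10835 genes tested. The livers came from 18 male mice aged 20 weeks, 9 wild-type (WT) and 9 *Gpr180*KO, with 1 library of poly(A) RNA per sample. The knockout is a whole-body CRISPR/Cas9 deletion made in C57BL/6J embryos, which removes an exon and shifts the reading frame, so every organ lacks the intact gene and a truncated mRNA can remain. Animals on other diets were not analysed here.

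mTOR is a protein kinase that joins nutrient, insulin and energy signals to protein synthesis, lipid synthesis and autophagy. It works in a pair of complexes, mTORC1, which holds raptor (*Rptor*), and mTORC2, which holds rictor (*Rictor*). The GTPase Rheb switches on mTORC1 at the lysosome, the TSC complex (*Tsc1*, *Tsc2*) switches Rheb off, and REDD1 (*Ddit4*), a short-lived stress-induced protein, acts through TSC2. These proteins are controlled largely by phosphorylation and by their place in the cell, whereas the values here are mRNA levels, and no protein was measured in these tables.

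Values are FPKM, the reads of a gene scaled to transcript length and to the mapped reads of the library, as deposited. The sum of FPKM lay between 554796 and 629067 in 17 libraries and was 718746 in the *Gpr180*KO library KOhfd51. Read depth, judged from the steps between low values, was 60.8 to 100% of that of the deepest library in WT and 44.3 to 93.4% in *Gpr180*KO. The sample titles come in a pair of styles. In 4 libraries per genotype the title ends in HFD (as in W317HFD), and in 5 per genotype it ends in the number (as in WThfd131). What the styles stand for is not given in the labels, so genotypes were also compared within each. *Gpr180* itself was at 6.79 ± 1.99 FPKM in WT (SD, n = 9; 4.46 to 9.24) and 1.6 ± 0.37 in *Gpr180*KO (SD, n = 9; 0.876 to 1.99), 0.25 times the WT level (log2 difference -2.0, limma adjusted p = 4.74e-06). No *Gpr180*KO library reached the lowest WT library, which was so for 0.175% of all genes. The transcript is thus reduced, not absent, in every library labelled *Gpr180*KO.

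Of the 10 genes, 1 was called lower in *Gpr180*KO and 0 were called higher (limma on log2(FPKM + 0.1), Benjamini-Hochberg adjusted p under 0.05 over all genes tested). At an unadjusted p under 0.05 there were 3, *Ddit4*, *Mtor* and *Mlst8*, all with lower values, beside 22.2% of all genes. Among all genes tested 4.73% were called, 4.28% as lower and 0.452% as higher, so a count of 1 among 10 genes is close to that background. The gene called was *Ddit4*, an inhibitor. The 5 activators had log2 differences of -0.36 to 0.02 with a median of -0.17, and the 5 inhibitors of -0.77 to 0.04 with a median of -0.15, beside a median of -0.13 over all genes. Without KOhfd51 these medians were -0.08 and -0.04, beside -0.10. With median-of-ratios scaling, which brings the median of all genes to 0.02, the medians of the activators and inhibitors were -0.0142 and -0.0014, none of the 10 was called, and 2.7% of all genes were. The unadjusted p was under 0.05 for *Ddit4* alone under that scaling.

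By mean FPKM over the 18 livers, *Deptor* (27.2), *Rheb* (25.2) and *Akt1s1* (21.5) stood highest, with ranges that overlap. *Tsc2* (8.65), *Mtor* (8.09) and *Rptor* (6.94) followed at a distance. *Tsc1* (4.63), *Ddit4* (3.65), *Mlst8* (3.06) and *Rictor* (2.61) were lowest, and the ranges of each neighbouring pair overlap except between *Akt1s1* and *Tsc2*.

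**Figure D1:**
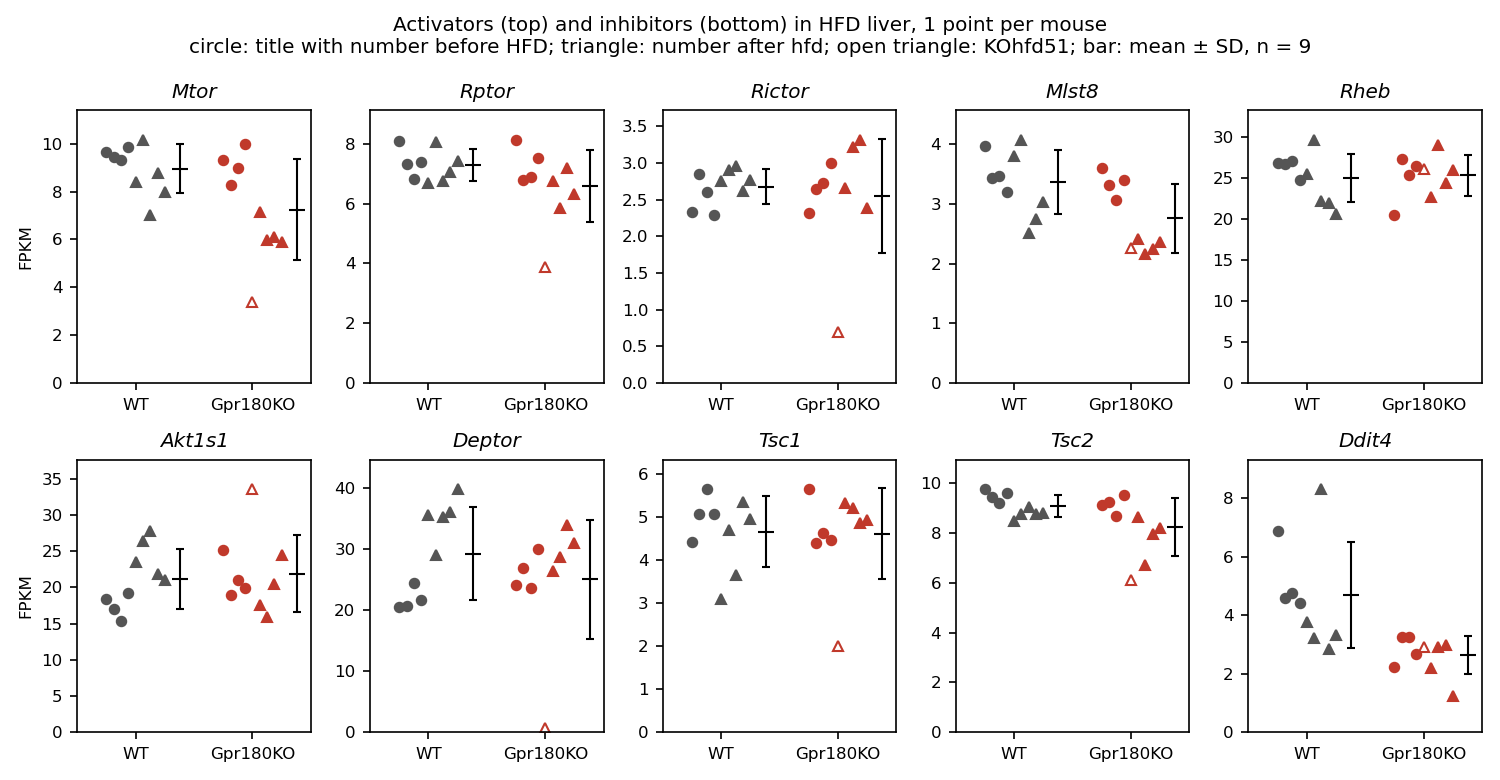
FPKM of each of the 10 genes in the 18 livers (vertical axes start at 0), with WT in grey and *Gpr180*KO in red, circles for titles that end in HFD, triangles for titles that end in the number, an open triangle for KOhfd51, and black bars for mean ± SD (n = 9). *Ddit4* lies between 1.25 and 3.26 FPKM in *Gpr180*KO and between 2.84 and 8.31 in WT, and KOhfd51 lies below all other libraries for *Deptor*, *Rictor*, *Tsc1*, *Mtor*, *Rptor* and *Tsc2*.

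*Ddit4* (GRCm38, chr10:59949675-59951770, minus strand) encodes REDD1, which is induced by hypoxia, energy stress and glucocorticoids and restrains mTORC1. In WT it ranged from 2.84 FPKM in WThfd156 over a median of 4.40 to 8.31 in WThfd134. In *Gpr180*KO it ranged from 1.25 in KOhfd56 over a median of 2.91 to 3.26 in KO321HFD. All 9 *Gpr180*KO values lay below the WT median, while the WT libraries WThfd133 and WThfd156 fell inside the *Gpr180*KO range. The mean was 4.68 ± 1.81 FPKM in WT (SD, n = 9) and 2.63 ± 0.64 in *Gpr180*KO (SD, n = 9), a log2 difference of -0.77 (SE 0.20, 95% interval -1.19 to -0.35; 0.587-fold), with a limma adjusted p of 0.0366. Over all 48620 ways to divide the livers into 9 and 9, an exact permutation test (two-sided, unadjusted) gave p = 0.00103, where the smallest possible p is 4.11e-05. The interval that the tables give beside each value (its level is not stated) ran from 5.41 to 7.48 FPKM in W317HFD and from 0.799 to 1.67 in KOhfd56, so single values of this lowly expressed gene carry an estimation error of their own.

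The mean *Ddit4* level was lower in *Gpr180*KO in both title styles. Among titles that end in HFD the 4 WT livers held 4.40 to 6.87 FPKM and the 4 *Gpr180*KO livers 2.24 to 3.26, with no overlap (log2 difference -0.82, adjusted p = 0.036). In that style 5.33% of all genes were called and 11.5% were lower without overlap. The call held there with median-of-ratios scaling (-0.74, adjusted p = 0.043). Among titles that end in the number the 5 WT livers held 2.84 to 8.31 FPKM and the 5 *Gpr180*KO livers 1.25 to 2.98, which overlap (log2 difference -0.73, adjusted p = 0.263), and 0.0% of all genes were called there, with 18.6% at an unadjusted p under 0.05. The two-sided exact permutation p was 0.0286 in the former, the smallest that 4 against 4 allows, and 0.0317 in the latter. Where titles end in the number, the medians (3.32 FPKM in WT, 2.91 in *Gpr180*KO) lay closer than the means (4.29 and 2.45). WThfd134 (8.31) was the highest WT liver there and KOhfd56 (1.25) the lowest *Gpr180*KO liver. Median-of-ratios scaling moved the log2 difference of *Ddit4* in that style to -0.53 (limma 95% interval -1.27 to 0.21, adjusted p = 0.5). The difference between the styles was 0.09 (limma interaction, SE 0.40, 95% interval -0.75 to 0.94, adjusted p = 0.963). With title style as a block the adjusted p was 0.0178, in a fit that called 10.6% of all genes. The call was lost with median-of-ratios scaling (log2 difference -0.62, adjusted p = 0.0975), under which the unadjusted exact permutation p was 0.00592. It was also lost when any of 9 libraries was left out in turn (W317HFD, W318HFD, W319HFD, W320HFD, WThfd133, KOhfd52, KOhfd53, KOhfd54 or KOhfd56), with adjusted p between 0.052 and 0.0786 and a log2 difference between -0.82 and -0.65. Without KOhfd51 it held (-0.79, adjusted p = 0.0363), with 7.18% of all genes called.

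The bases upstream of the start site are shown for *Ddit4* and for its paralogue *Ddit4l* (REDD2), which is described further on, because *Ddit4* is the gene called among the 10 and *Ddit4l* is its paralogue with a lower level in the same livers. Sequences are from RefSeq (GRCm38.p6), 250 bases before the annotated start, 5′ to 3′ on the gene's strand, with each CCAAT box (CCAAT, or ATTGG on the other strand) in capitals. The *Ddit4* window is chr10:59951771-59952020 on the minus strand and the *Ddit4l* window chr3:137623422-137623671 on the plus strand.
Ddit4: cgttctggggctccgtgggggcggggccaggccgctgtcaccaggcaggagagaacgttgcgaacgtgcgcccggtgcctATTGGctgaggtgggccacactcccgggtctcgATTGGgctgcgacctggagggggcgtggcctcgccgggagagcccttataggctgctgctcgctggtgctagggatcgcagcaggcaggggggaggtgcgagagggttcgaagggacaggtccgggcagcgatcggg
Ddit4l: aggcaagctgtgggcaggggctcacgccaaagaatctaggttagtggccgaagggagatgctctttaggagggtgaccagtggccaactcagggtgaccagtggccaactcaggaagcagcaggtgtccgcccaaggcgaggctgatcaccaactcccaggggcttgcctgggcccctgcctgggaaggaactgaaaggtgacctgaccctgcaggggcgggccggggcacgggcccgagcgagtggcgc
The *Ddit4* window held 2 CCAAT boxes, and 10.1% of 32851 promoters of this length held at least 2. The *Ddit4l* window held 0. Neither window held CACGTG, found in 6.02% of promoters, or TGACGT on either strand, found in 6.47%. GC content was 70.0% in the *Ddit4* window and 65.2% in the *Ddit4l* window.

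*Mtor* (chr4:148448582-148557685, plus strand), the kinase shared by both complexes, ranged from 7.01 FPKM in WThfd134 over a median of 9.30 to 10.2 in WThfd133 among WT livers. Among *Gpr180*KO livers it ranged from 3.39 in KOhfd51 over a median of 7.13 to 10 in KO322HFD. The groups overlapped. The means were 8.95 ± 1.01 in WT (SD, n = 9) and 7.23 ± 2.11 in *Gpr180*KO (SD, n = 9), a log2 difference of -0.36 (SE 0.16, 95% interval -0.69 to -0.03, adjusted p = 0.19), which did not pass the test. Without KOhfd51 it was -0.23 (adjusted p = 0.216), and with median-of-ratios scaling -0.21 (adjusted p = 0.418).

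The *Mtor* values differed between the title styles. Over both genotypes *Mtor* was lower in titles that end in the number (log2 difference -0.45, adjusted p = 0.0159), as a test of the styles called 22.9% of all genes. Among titles that end in HFD, WT livers held 9.30 to 9.85 FPKM and *Gpr180*KO livers 8.29 to 10, a log2 difference of -0.07 (adjusted p = 0.579). Among titles that end in the number, WT livers held 7.01 to 10.2 FPKM and *Gpr180*KO livers 3.39 to 7.13, a log2 difference of -0.59 (adjusted p = 0.16). Only KOhfd52 of the latter exceeded the lowest WT liver. The interaction was -0.53 (SE 0.23, unadjusted p = 0.0315, adjusted p = 0.641), so the difference between the styles did not hold after adjustment. Unadjusted p was under 0.05 for the interaction in 7.69% of all genes, and 0.0% passed the adjusted threshold. With style as a block and KOhfd51 left out, *Mtor* passed the threshold (log2 difference -0.25, adjusted p = 0.0335), in a fit in which 18.3% of all genes did.

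*Mlst8* (chr17:24473550-24479078, minus strand) encodes the small WD-repeat subunit of both complexes that steadies the kinase domain. It ranged from 2.51 FPKM over a median of 3.43 to 4.07 in WT and from 2.16 over a median of 2.42 to 3.59 in *Gpr180*KO. The means were 3.36 ± 0.54 and 2.76 ± 0.58 (SD, n = 9 each), a log2 difference of -0.29 (SE 0.12, 95% interval -0.55 to -0.02, adjusted p = 0.185). With median-of-ratios scaling it was -0.14 (adjusted p = 0.525). Among titles that end in the number the 5 *Gpr180*KO livers (2.16 to 2.42 FPKM) all lay below the 5 WT livers (2.51 to 4.07), with a log2 difference of -0.46, an adjusted p of 0.165 and a two-sided exact permutation p of 0.00794, the smallest that 5 against 5 allows. In that style 5.5% of all genes were lower without overlap, and their median log2 difference was -0.17. The separation of *Mlst8* held for FPKM as deposited only. Once rescaled by median of ratios, WThfd134 (2.35) lay below all 5 *Gpr180*KO livers of that style (2.38 to 2.75). The rescaled log2 difference there was -0.26 (limma adjusted p = 0.45). Among titles that end in HFD the groups overlapped as deposited, at 3.20 to 3.96 FPKM in WT and 3.06 to 3.59 in *Gpr180*KO (log2 difference -0.07). The interaction for *Mlst8* was -0.39 (unadjusted p = 0.048, adjusted p = 0.649). In the annotation, 997 bases of *Mlst8* exons lie across from exons of *Bricd5* on the other strand, and strand-aware counting is not stated in the sources used here, so reads of the 2 genes may not be told apart there.

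The windows upstream of *Mtor* (chr4:148448332-148448581, plus strand) and *Mlst8* (chr17:24479079-24479328, minus strand) are shown. *Mtor* and *Mlst8* were the activators with an unadjusted limma p under 0.05 over all livers. CCAAT boxes are in capitals as above.
Mtor: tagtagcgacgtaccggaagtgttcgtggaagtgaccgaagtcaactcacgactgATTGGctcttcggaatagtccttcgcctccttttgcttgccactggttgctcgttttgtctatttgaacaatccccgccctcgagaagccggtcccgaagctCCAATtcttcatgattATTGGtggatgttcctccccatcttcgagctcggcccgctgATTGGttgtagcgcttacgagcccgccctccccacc
Mlst8: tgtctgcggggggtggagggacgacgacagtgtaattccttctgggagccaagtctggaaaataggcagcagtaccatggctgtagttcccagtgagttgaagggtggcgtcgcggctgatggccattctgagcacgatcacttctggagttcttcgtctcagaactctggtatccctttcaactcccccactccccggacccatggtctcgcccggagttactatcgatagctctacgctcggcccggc
The *Mtor* window held 4 CCAAT boxes and the *Mlst8* window 0. At least 1 was found in 33.8% of all promoter windows and at least 3 in 2.79%. Of the 9 genes of the group with a window in the table, *Mtor*, *Ddit4* and *Rictor* held any, with 1 in *Rictor*.

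The subunits that set the complexes apart did not differ beyond the spread between livers. *Rptor*, the scaffold that brings substrates to mTORC1, was at 6.70 to 8.08 FPKM in WT (median 7.30) and 3.89 to 8.14 in *Gpr180*KO (median 6.79), with a log2 difference of -0.17 (SE 0.11, 95% interval -0.39 to 0.06, adjusted p = 0.37). The *Rptor* value was -0.08 without KOhfd51 and -0.01 with median-of-ratios scaling. *Rictor*, the scaffold of mTORC2, was the lowest of the 10 genes with 2.29 to 2.96 FPKM in WT (median 2.75) and 0.691 to 3.32 in *Gpr180*KO (median 2.66), a log2 difference of -0.16 (SE 0.21, 95% interval -0.58 to 0.27, adjusted p = 0.665). Without KOhfd51 the value for *Rictor* turned to 0.05. *Rheb*, the GTPase that activates mTORC1, was at 20.7 to 29.7 FPKM in WT and 20.5 to 29.1 in *Gpr180*KO, with medians of 25.5 and 26.0 and a log2 difference of 0.02 (SE 0.08, 95% interval -0.15 to 0.19, adjusted p = 0.911). The ranges of the genotypes overlapped for all 3 genes, and the lower end of *Rptor* and *Rictor* in *Gpr180*KO was KOhfd51. Median-of-ratios scaling moved *Rheb* to 0.17 (adjusted p = 0.304).

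Among the other inhibitors, neither TSC gene was called between genotypes. *Tsc1*, which stabilises the complex, was at 3.10 to 5.63 FPKM in WT (median 4.94) and 2.00 to 5.64 in *Gpr180*KO (median 4.86), a log2 difference of -0.04 (SE 0.16, 95% interval -0.38 to 0.30, adjusted p = 0.888), which turned to 0.10 without KOhfd51. *Tsc2*, the subunit that acts on Rheb, varied least among WT livers, with a coefficient of variation of 4.85%, and was at 8.46 to 9.75 FPKM in WT (median 9.02) and 6.10 to 9.49 in *Gpr180*KO (median 8.61). Its log2 difference was -0.15 (SE 0.08, 95% interval -0.33 to 0.02, adjusted p = 0.286) or -0.10 without KOhfd51 and -0.0014 with median-of-ratios scaling. The unadjusted exact permutation p for *Tsc2* was 0.0455 over all livers and 0.977 with that scaling. Where titles end in the number, *Tsc2* was at 8.46 to 9.02 FPKM in WT and 6.10 to 8.61 in *Gpr180*KO, which overlap. The log2 difference there was -0.23 (limma adjusted p = 0.31, unadjusted exact permutation p = 0.0159), or -0.03 with median-of-ratios scaling. Where titles end in HFD the difference was -0.06. The exons of *Tsc2* share 693 bases with those of *Pkd1* on the opposite strand.

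*Akt1s1* encodes PRAS40, an inhibitory partner of raptor that Akt phosphorylates. It was at 15.3 to 27.7 FPKM in WT (median 21.0) and 15.9 to 33.6 in *Gpr180*KO (median 20.5), and the log2 difference was 0.04 (SE 0.14, 95% interval -0.24 to 0.32, adjusted p = 0.872), or -0.04 without KOhfd51 and 0.19 with median-of-ratios scaling. *Deptor* (chr15:55112483-55254202, plus strand), an inhibitor that binds mTOR in both complexes, had the highest mean level of the 10 genes. It was at 20.6 to 39.9 FPKM in WT (median 29.0) and 0.654 to 34.0 in *Gpr180*KO (median 27.0). Its log2 difference of -0.60 (SE 0.54, 95% interval -1.72 to 0.52, adjusted p = 0.516) rested on KOhfd51, the library at 0.654, since without it the lowest *Gpr180*KO liver was at 23.7 FPKM and the difference was -0.02 (SE 0.14, 95% interval -0.31 to 0.27, adjusted p = 0.952).

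Among WT livers *Deptor* and *Akt1s1* differed between the title styles. *Deptor* was at 20.6 to 24.4 FPKM in the 4 WT livers with titles that end in HFD and at 29.0 to 39.9 in the 5 whose titles end in the number. *Akt1s1* was at 15.3 to 19.2 and 21.0 to 27.7 FPKM in the same livers. Neither gene overlapped between the styles in WT, and 21.2% of all genes did not. In *Gpr180*KO both genes overlapped between the styles. *Deptor* was at 23.7 to 30.1 and, without KOhfd51, 26.4 to 34.0 FPKM. *Akt1s1* was at 18.9 to 25.2 and, without KOhfd51 (33.6), 15.9 to 24.5 FPKM. Over both genotypes, with KOhfd51 included, the difference between the styles did not pass the limma test for *Deptor* (-0.09, SE 0.56, adjusted p = 0.924) or *Akt1s1* (adjusted p = 0.172). The styles were not tested for *Deptor* without that library. Its *Gpr180*KO mean was then 30.05 FPKM where titles end in the number, beside 26.24 where they end in HFD. Within titles that end in HFD the log2 differences between genotypes were 0.26 for *Deptor* (adjusted p = 0.121) and 0.28 for *Akt1s1* (adjusted p = 0.145). Within titles that end in the number the log2 differences without KOhfd51 were -0.22 for *Deptor* (adjusted p = 0.201) and -0.31 for *Akt1s1* (adjusted p = 0.188). None of these 4 values passed the test, and the interactions without KOhfd51 (*Deptor* -0.49, adjusted p = 0.21; *Akt1s1* -0.58, adjusted p = 0.225) did not either.

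**Figure D2:**
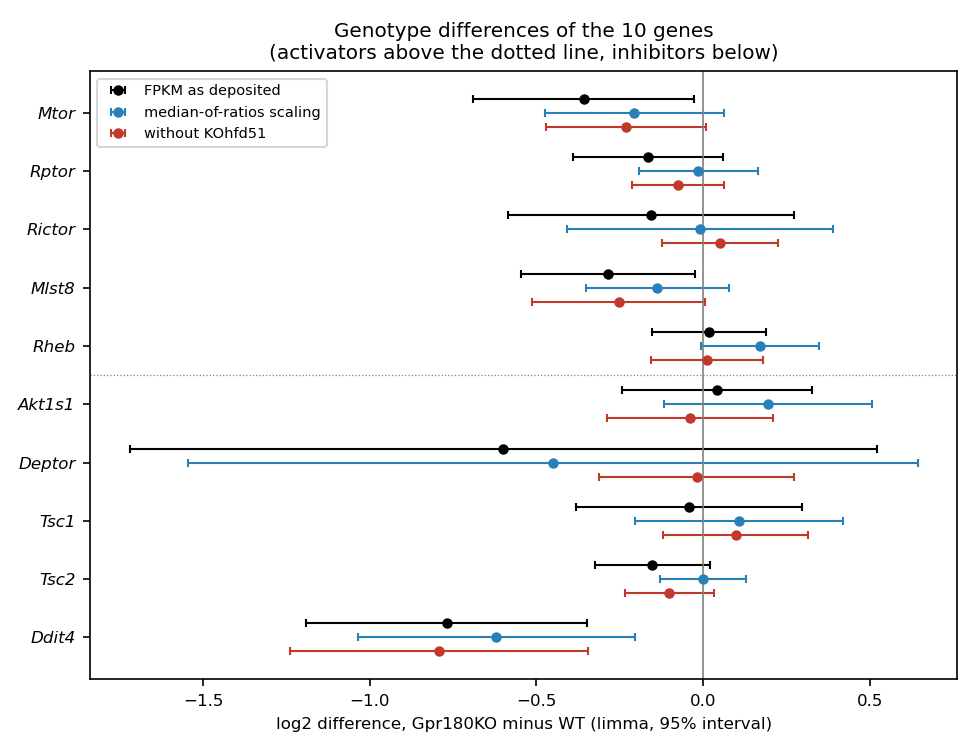
Log2 difference of *Gpr180*KO minus WT for the 10 genes with its 95% interval (limma), for FPKM as deposited (black), with median-of-ratios scaling (blue) and without KOhfd51 (red). The interval of *Ddit4* stays below 0 in all 3 fits, and that of *Deptor* narrows from -1.72 to 0.52 to -0.31 to 0.27 when KOhfd51 is left out.

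The library KOhfd51 stood apart by transcript length. Against the other 8 *Gpr180*KO libraries its genes under 2000 nucleotides were higher (median log2 difference 0.41) and those of 5000 nucleotides or more were lower (median -1.06). The correlation of the deviation with length was a Spearman rho of -0.67 across genes, and in the other 17 libraries rho lay between -0.19 and 0.40. The 10 genes followed this order for the most part. *Rictor* (longest transcript 9312 nucleotides) had a log2 difference of -1.86 in KOhfd51, *Tsc1* (7702 nucleotides) of -1.26, *Mtor* (8564 nucleotides) of -1.13 and *Rptor* (6594 nucleotides) of -0.81. The short genes *Ddit4* (1755 nucleotides) and *Akt1s1* (1757 nucleotides) were at 0.21 and 0.73, and *Rheb* (1784 nucleotides) at 0.06.

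*Deptor* left the pattern, with a difference of -5.22, a value under which only 6 of the 10835 genes fell. The longest *Deptor* transcript inside the deposited interval has 3300 nucleotides and the longest annotated has 8547, and the length class with a median of 9431 nucleotides had a median difference of -1.39 in KOhfd51. *Deptor* fell below the middle range of either length class. The part of transcript length or RNA quality in these values was not tested.

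**Figure D3:**
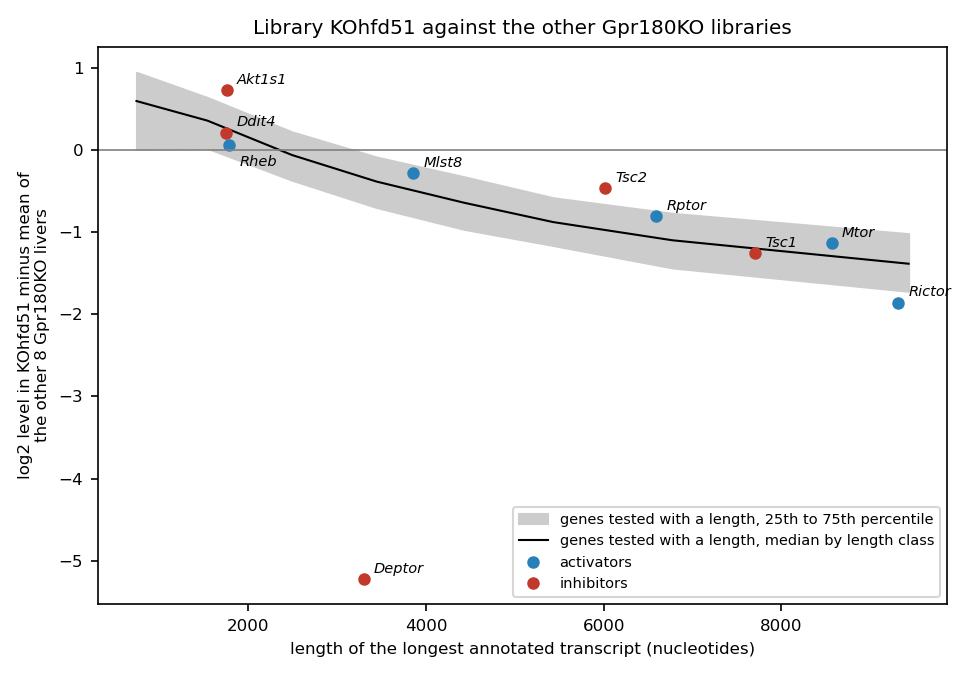
Log2 level in KOhfd51 minus the mean of the other 8 *Gpr180*KO livers (vertical axis) against the length of the longest transcript (horizontal axis, nucleotides), with the median and the 25th to 75th percentile of the genes tested by length class, activators in blue and inhibitors in red. The genes run downward with length from *Akt1s1* at 0.73 to *Rictor* at -1.86, and *Deptor* lies apart at -5.22.

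Activators were set against inhibitors within each library, as the mean log2(FPKM + 0.1) of the 5 activators minus that of the 5 inhibitors, a quantity that a scaling factor per library changes little. It was -0.58 ± 0.20 in WT (SD, n = 9; -1.0 to -0.36) and -0.46 ± 0.16 in *Gpr180*KO (SD, n = 9; -0.66 to -0.11). The groups overlapped, and the difference of 0.12 was smaller than either SD. KOhfd51 gave the highest value and WThfd134, the liver with the most *Ddit4*, the lowest. Without *Deptor* KOhfd51 instead gave the lowest value of all livers (-0.71), and the difference between genotypes was 0.04. Without both *Deptor* and KOhfd51 that difference was 0.11. With all 10 genes the difference without KOhfd51 was 0.07. In all livers it was -0.0008 without *Ddit4*. That near-zero value rested on KOhfd51, since without *Ddit4* and without that library the difference was -0.08. Without *Ddit4* it was -0.13 where titles end in HFD and 0.10 where they end in the number. The 0.10 rested on KOhfd51 (-0.21), as the other *Gpr180*KO livers of that style lay between -1.22 and -0.92, beside a WT mean of -0.99. With all 10 genes the difference by title style was 0.05 where titles end in HFD and 0.17 where they end in the number. In the latter, KOhfd51 was at -0.11 and the other *Gpr180*KO livers lay between -0.66 and -0.53, beside a WT mean of -0.65.

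**Figure D4:**
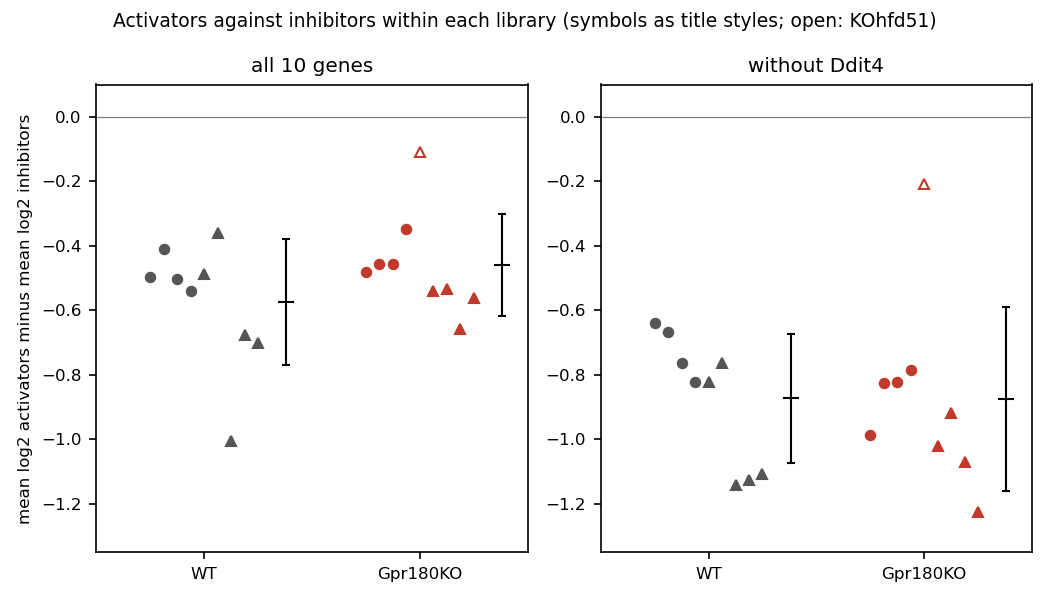
Mean log2 level of the activators minus that of the inhibitors in each liver (vertical axis, log2 units), with all 10 genes (left) and without *Ddit4* (right), symbols for title style, an open triangle for KOhfd51 and bars for mean ± SD (n = 9). WT lies between -1.0 and -0.36 and *Gpr180*KO between -0.66 and -0.11 with all 10 genes. Without *Ddit4* the means are -0.87 in both, and the *Gpr180*KO mean is -0.96 when KOhfd51 is also left out.

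The neighbouring pathway was described with 6 lists of 67 further gene symbols, of which 64 were found and 56 tested. The symbols include older and newer names of the same arginine sensor genes, which were found under the older name. Of these, 2 were called lower and 0 higher, 3.57% beside 4.73% of all genes, and their median log2 difference was -0.12 beside -0.13. The genes called were *Rraga*, the Rag GTPase that recruits mTORC1 to the lysosome, and *Lpin1*, a phosphatidate phosphatase and nuclear coregulator phosphorylated by mTORC1. *Rraga* was at 26.9 ± 2.38 FPKM in WT and 22.4 ± 1.94 in *Gpr180*KO (SD, n = 9 each; log2 difference -0.26, adjusted p = 0.0392). *Lpin1* was at 19.3 ± 4.40 and 12.2 ± 4.62 (SD, n = 9 each; log2 difference -0.72, adjusted p = 0.0442). Neither was called with median-of-ratios scaling (adjusted p = 0.397 for *Rraga* and 0.111 for *Lpin1*). With each library left out in turn, *Rraga* was called in 8 of 18 fits and *Lpin1* in 5 of 18, so both calls lie at the threshold. *Lpin1* was at -0.61 without KOhfd51 (adjusted p = 0.0529).

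By role, 0 of 6 genes were called among the TSC and complex partners such as *Mapkap1* (log2 difference 0.02) and *Telo2* (-0.25). Of the Rag and Ragulator genes 1 of 11 was called, and *Fnip2*, a partner of folliculin, had -0.58 (adjusted p = 0.107). Of the GATOR and KICSTOR genes, which pass on amino acid signals, 0 of 11 were called, with values between -0.29 (*Nprl3*) and 0.06 (*Wdr24*). Of the amino acid sensors 0 of 4 were called, with all 4 values below 0, as were 76.9% of all genes, from *Gatsl2* (-0.61, adjusted p = 0.186) to *Sesn1* (-0.31, adjusted p = 0.0821). *Sesn3* had -0.40 with KOhfd51, where it was at 0.828 FPKM, and -0.08 without it. Of the upstream kinases 0 of 11 were called, with *Prkaa2*, the catalytic AMPK subunit typical of muscle and liver, at -0.43 (adjusted p = 0.168), or -0.28 without KOhfd51. Of the substrates and effectors 1 of 13 was called, and *Eif4ebp2*, a translation repressor, had -0.27 (adjusted p = 0.516), or -0.03 without KOhfd51, where it was at 12.3 FPKM.

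A further 8 pathway genes lay under the mean of 1 FPKM and were not tested above. With the minimum lowered to 0.1 FPKM, 5.97% of 14016 genes were called, and 2 more pathway genes were among them. These are named after their values were seen. *Ddit4l*, the paralogue of *Ddit4*, was at 0.508 to 1.54 FPKM in WT (median 0.985) and 0.233 to 0.572 in *Gpr180*KO (median 0.405). The ranges overlapped, with a log2 difference of -1.06 (SE 0.21, adjusted p = 0.0119). *Rragd*, a Rag GTPase, was at 0.453 to 0.633 FPKM in WT and 0.148 to 0.518 in *Gpr180*KO, which also overlap (log2 difference -0.61, adjusted p = 0.0328). Since log2(FPKM + 0.1) compresses low values, these differences understate the change of such genes.

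Known inducers of *Ddit4* were read from lists of their other targets. The list for ATF4, the factor of the integrated stress response, held *Atf4* itself and 5 tested targets, of which 0 were called. *Atf4* had a log2 difference of -0.02, *Sesn2* -0.33 (adjusted p = 0.269), *Ddit3* -0.22 and *Atf5* 0.22. Of 8 tested glucocorticoid targets 0 were called, and values ran from *Per1* (-0.60, adjusted p = 0.309) and *Tat* (0.54) to *Pck1* (0.71, adjusted p = 0.0613), a gluconeogenic enzyme. *Fkbp5* was at -0.41 (adjusted p = 0.0876), or -0.26 with median-of-ratios scaling. Of the 8 values 6 lay below 0, and 2 did without KOhfd51. *Pck1* passed with median-of-ratios scaling (0.86, adjusted p = 0.0471) and without KOhfd51 (0.78, adjusted p = 0.0419). The tested genes of both lists had values on either side of 0. A further 3 ATF4 targets, enzymes of amino acid and one-carbon metabolism, lay under 1 FPKM and outside the main fit. Their levels are given here without a test. *Psat1* was at 0.82 ± 0.317 FPKM in WT and 0.344 ± 0.0743 in *Gpr180*KO, *Mthfd2* at 0.957 ± 0.33 and 0.654 ± 0.107, and *Asns* at 0.837 ± 0.643 and 0.845 ± 1.02 (SD, n = 9 each).

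Livers hold several cell types, and in bulk RNA fewer cells of a type and less RNA per cell cannot be told apart. The hepatocyte markers were far above the others (summed 14030 to 18980 FPKM in WT and 16710 to 29230 in *Gpr180*KO, where the highest was KOhfd51), and 0 of 6 were called. Of 6 stellate and fibroblast markers 3 were called lower, beside 4.28% of all genes. These were *Col1a1* (log2 difference -1.99, adjusted p = 0.0161), *Col3a1* (-1.73, adjusted p = 0.0132) and *Dcn* (-0.68, adjusted p = 0.00631). *Reln* (-0.56, adjusted p = 0.0657), *Lrat* (-0.31, adjusted p = 0.446) and *Des* (-0.08, adjusted p = 0.812) were not called. The summed level of the list (138.6 to 270.2 FPKM in WT, 77.3 to 135.7 in *Gpr180*KO) did not overlap between genotypes. Among single genes, 0.175% were lower without overlap. Most of that sum was *Dcn*, with a mean of 144.5 FPKM in WT and 89.7 in *Gpr180*KO. Of 5 macrophage markers tested *Cd68* was called lower (-0.69, adjusted p = 0.0257). The rest, *Clec4f* (0.16), *Timd4* (0.16), *Csf1r* (-0.14) and *Marco* (-0.06), were not called. The list summed to 64.2 to 153.1 FPKM in WT and 72.3 to 111.3 in *Gpr180*KO. Of 6 endothelial markers 0 were called (summed 78.9 to 124.2 and 71.9 to 112.3 FPKM). Among lymphocyte markers *Ptprc*, the pan-leukocyte gene CD45, was the only gene tested (-0.65, adjusted p = 0.0979), and the list summed to 4.31 to 10.4 FPKM in WT and 3.08 to 6.44 in *Gpr180*KO. The part of these cell types in the lower level of *Ddit4* was not tested.

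The genes whose levels ran most like those of *Mtor* and *Ddit4* over the 18 livers were read as a description. For *Mtor* they were *Vwa8* (Pearson r = 0.97), *Lrrk1* (0.96) and *Arhgef5* (0.96); in KOhfd51 they stood at 36.8, 1.02 and 3.39 FPKM beside *Gpr180*KO means of 60.4, 2.32 and 6.43. Without that library they were *Glul* (0.97), the glutamine synthetase of pericentral hepatocytes, *Lpin3* (0.96) and *Glrx5* (0.96), and the 3 genes were different ones. For *Ddit4* they were *Hist3h2a* (0.85), *Ccna2* (0.81), a cyclin of dividing cells, and *Lmo2* (0.81). *Hist3h2a* was called lower in *Gpr180*KO as *Ddit4* was (log2 difference -0.52, adjusted p = 0.0366), while *Ccna2* (-0.58, adjusted p = 0.202) and *Lmo2* (-0.43, adjusted p = 0.079) were not. The livers differ in genotype, title style and depth, and the part of these in the correlations was not tested.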

How the data were processed

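FPKM values were analysed for 18 HFD mouse livers (9 WT, 9 *Gpr180*KO). The authors prepared poly(A) libraries (TruSeq mRNA), aligned reads to mm10 (GRCm38) with Illumina's TopHat Alignment application, which the methods name before its FPKM output, and deposited FPKM per gene with an interval and a status. The module that computed FPKM, its annotation and any scaling between libraries are not given in the sources used here. FPKM depends on transcript length and on the most abundant genes, and counts were not analysed here, so count models were not used and depth is known only in relative terms, from the commonest ratio between low values.

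Entries sharing a symbol (23847 entries, 23352 symbols) were summed, and 24 genes with 190 failed estimates were left out, none of them among the 10 genes. Genotypes were compared with limma 3.58.1 (R 4.3.3; lmFit, eBayes with trend) on log2(FPKM + 0.1) for 10835 genes with a mean of at least 1 FPKM, with p-values adjusted by Benjamini and Hochberg and called under 0.05. Fold changes on this scale understate changes of low genes. Two-sided exact permutation tests used the same values and are unadjusted. P-values of the main fit are set against the spread between livers of the same genotype. That spread also holds the differences between title styles and the deviation of KOhfd51. Steps were tested on simulated data. Transcript lengths (GENCODE, GRCm38) were matched for 90.8% of genes tested, and promoters (RefSeq GRCm38.p6) for 9 of the 10 genes. Positions are those of the tables, counted from 1. Tables were handled in Python 3.11.15 with pandas 2.3.3, exact tests used numpy 2.4.6 and scipy 1.17.1, and plots matplotlib 3.10.9.

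Genes named were the 10 genes, the genes called and up to 3 with the largest differences in each list, *Gpr180*, and the 3 genes most correlated with *Mtor* and with *Ddit4*. *Ddit4l*, *Rragd*, *Atf4*, *Mapkap1*, *Wdr24*, *Sesn1* and the genes most like *Deptor* and *Mlst8* were added with their values known. So were *Fkbp5*, *Reln*, *Lrat*, *Des*, *Csf1r* and *Marco*. The members and lists were chosen with earlier results of these data known. Alternatives were other pseudocounts, filters and scalings, title style as a block or alone, limma without trend, robust or with library weights, and each library left out. Combinations with KOhfd51 left out were added after seeing the data.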

Additional observations from a re-analysis of the deposited data

Results flagged for a closer look

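In 22 groups of 9 livers (11 quantities in each genotype), 6 had a lowest liver whose gap to the next, as a share of the whole range, was above Dixon's 95% critical value, where about 1 in 20 groups would by chance. All 6 were in *Gpr180*KO, and 5 of them were the same library, KOhfd51. On the log2(FPKM + 0.1) scale KOhfd51 was at 1.80 for *Mtor* (next liver 2.58), 2.00 for *Rptor* (next 2.57), -0.34 for *Rictor* (next 1.28), -0.41 for *Deptor* (next 4.58) and 1.07 for *Tsc1* (next 2.17). The sixth was *Ddit4* in KOhfd56, at 0.44 with the next liver at 1.21. Without KOhfd56 the log2 difference of *Ddit4* was -0.65 (limma adjusted p = 0.052).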

How the results depend on the processing

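Limits lie in scaling, in KOhfd51 and in the absence of counts. *Ddit4* kept its direction in all 35 alternatives and lost its call in 15. Apart from single libraries these were median-of-ratios scaling (-0.62), alone, with title style as a block (-0.62) or without KOhfd51 (-0.67), 75th percentile scaling (-0.65), and titles that end in the number with KOhfd51 (-0.73) or without it (-0.80). It could not be fitted at a minimum of 5 FPKM. Leaving out each library gave *Ddit4* values of -0.85 to -0.65, with 9 of 18 fits called. Members called fell from 1 to 0 in those alternatives and rose to 2 with title style as a block without KOhfd51, and lay between 0 and 1 with each library left out. *Mlst8* kept its direction and side of the threshold in 35 of 35 alternatives, and *Mtor* passed in 1 of 36 (style as a block without KOhfd51). The balance of activators and inhibitors moved by less than 1 SD in all 26, with 0.06 to 0.14 when libraries were left out.

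Directions turned for 7 of the 10 genes, *Deptor* with its value of -0.60 among them. *Rptor* was at 0.0484 and *Tsc2* at 0.0224 with median-of-ratios scaling without KOhfd51. *Rictor* was at 0.0831 among titles that end in HFD, 0.0676 with library weights, and without KOhfd51 at 0.172 (median-of-ratios), 0.0355 (titles that end in the number) and 0.058 (style block). *Rheb* was at -0.0201 (TPM), -0.0896 (titles that end in HFD) and -0.0112 (weights). *Akt1s1* was at -0.147 and, without KOhfd51, -0.305 among titles that end in the number, and -0.0299 with the block without KOhfd51. *Deptor* was at 0.261 (titles that end in HFD), 0.0826 (weights), and without KOhfd51 at 0.105 (median-of-ratios) and 0.0052 (block). *Tsc1* was at 0.107 with median-of-ratios scaling, with or without the block, 0.0761 (75th percentile), and without KOhfd51 at 0.22 (median-of-ratios), 0.246 (titles that end in the number) and 0.0925 (block). Leaving out each library gave -0.213 to 0.051 for *Rictor*, -0.016 to 0.0545 for *Rheb*, -0.0399 to 0.0944 for *Akt1s1* and -0.111 to 0.0969 for *Tsc1*.

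Pathway genes called moved from 2 to 0 with median-of-ratios scaling (alone, with the block or without KOhfd51), 75th percentile scaling and titles that end in the number (with or without KOhfd51), to 1 at 5 FPKM, with TPM or with titles that end in HFD, to 4 at 0.1 FPKM or with weights, and to 5 with the block without KOhfd51, and lay between 0 and 2 with each library left out. All genes called moved from 513 to 837 (0.1 FPKM), 238 (5 FPKM), 293 (median-of-ratios), 282 (75th percentile), 1153 (block), 1331 (weights), 1984 (block without KOhfd51), 0 (titles that end in the number; 2019 at an unadjusted p under 0.05 by limma) and 6 (the same without KOhfd51), and lay between 132 and 922 with each library left out. Lower calls were 464 of 513, and 147 of 293 with median-of-ratios scaling. The causes of these changes were not tested. The interaction with title style called 0 of the 10 genes in each fit. No paired analysis was possible because the labels give no replicate numbers that pair WT with *Gpr180*KO.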

Other observations

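Without KOhfd51 the genes most like *Ddit4* were *Hist3h2a* (Pearson r = 0.85), *Ints2* (0.83) and *Ly9* (0.83), a leukocyte surface receptor that was called lower in *Gpr180*KO (log2 difference -0.67, limma adjusted p = 0.0392). *Deptor* ran most like *A1cf*, the RNA-binding cofactor of apolipoprotein B mRNA editing, over 18 livers (r = 0.99) and over 17 (0.92), and in KOhfd51 *A1cf* was at 4.51 FPKM beside WT and *Gpr180*KO means of 53.0 and 45.5. Without KOhfd51 the next was *Igf1* (0.91), the growth factor that the liver secretes, which did not pass the test between genotypes (log2 difference -0.04, adjusted p = 0.904). *Mlst8* ran most like *Nomo1* (0.93) and *Slc35b4* (0.93) over 18 livers. The genes named beside *Deptor* and *Mlst8* were picked with their values in view.

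The deposited value of *Rheb* lay above the upper bound of its own deposited interval in 6 of 18 libraries, which was so for 0 libraries in the other 9 genes. In W319HFD the value was 27.1 FPKM and the upper bound 26.9.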
